A study of Mus musculus with 20 samples.

Results

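The 50 genes described here encode proteins of the nucleolus that transcribe, modify, cut and assemble ribosomal RNA into ribosomal subunits. They were taken by gene symbol, and all 50 were found in both deposited tables, among 11746 gene entries for GFP-high and 11779 for GFP-low cells. A total of 11296 genes were named once in both. The libraries hold RNA of crypt epithelium from the small intestine of C57BL/6J mice aged 8 weeks, and every mouse carried Lgr5-GFP, a reporter of the stem cell receptor gene Lgr5. The 4 groups of 5 libraries were GFP-high cells, named stem cells in the labels, and GFP-low cells, named TA (transit-amplifying) cells, of Itgb7+/+ mice (wild type, WT) and of Itgb7-/- mice (knockout, KO), which lack the beta 7 integrin subunit. The sort kept living EpCAM+ cells without the blood and vessel markers CD45, CD31 or TER119, and each mouse gave 1 GFP-high and 1 GFP-low library of 20900404 to 27838392 counts. Values for single libraries are given throughout in the order of the mouse numbers, which are 1, 3, 6, 7 and 8 for WT and 2, 3, 4, 5 and 6 for KO. No entry was named Itgb7, and its level is not analysed here, so the counts give no check of the genotype.

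RNA polymerase I transcribes ribosomal DNA in the nucleolus into a long precursor. Small nucleolar RNAs (snoRNAs), each carried by a set of core proteins, guide methylation and pseudouridylation of the precursor, while the small subunit processome and the large subunit assembly factors fold and cut it and add ribosomal proteins. Growing and dividing cells need many ribosomes, and the transcription factor Myc is a known activator of many genes of this pathway; in the intestinal crypt, Wnt signals maintain both Myc and the stem cells. The genes were placed in 7 roles: rRNA transcription, box C/D snoRNPs (snoRNA-protein particles), box H/ACA snoRNPs, small subunit processome, late 40S maturation, 60S assembly and nucleolar GTPases.

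Several of these genes also carry the pathway's guide RNAs. In GENCODE M21 (GRCm38), 21 annotated snoRNAs lay inside 7 of the 50 genes on the same strand, namely 5 in Nop56, 4 in Nop58, 3 each in Ncl, Wdr43 and Gnl3, 2 in Tsr1 and 1 in Dkc1. That is 14% of the genes, against 1.95% (212 of 10888) of the protein-coding genes held by both tables. The 4 printed here are of the box C/D class that the products of Fbl, Nop56 and Nop58 bind. Capitals mark the first TGATGA (box C) and the last CTGA (box D) found in each. They are given as annotated, 5′ to 3′ in DNA letters.

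The snoRNA sequences were read from GENCODE M21, one for each of 4 host genes that recur in the results:
Snord82 (in Ncl, chr1:86356261-86356330, - strand): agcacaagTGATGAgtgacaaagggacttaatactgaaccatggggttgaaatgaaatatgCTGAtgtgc
Snord110 (in Nop56, chr2:130275506-130275573, + strand): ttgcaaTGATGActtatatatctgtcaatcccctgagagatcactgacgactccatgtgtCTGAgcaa
Snord92 (in Wdr43, chr17:71631281-71631365, + strand): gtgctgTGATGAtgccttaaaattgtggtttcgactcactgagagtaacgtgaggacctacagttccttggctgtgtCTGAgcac
Snord69 (in Gnl3, chr14:31014287-31014366, - strand): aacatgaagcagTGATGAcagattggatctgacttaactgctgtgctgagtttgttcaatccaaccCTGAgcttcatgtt

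Transcripts of 6 of the 7 host genes (Ncl, Nop56, Nop58, Wdr43, Gnl3 and Dkc1) fell from GFP-high to GFP-low cells in both genotypes, and Tsr1 did not pass the test in either. Of the other 43 genes, 27 fell in WT and 28 in KO, beside 21.4% and 24.4% of all genes tested. The median log2 fold change of the 7 was -0.53 in WT and -0.52 in KO, beside -0.46 and -0.35 for the other 43 genes. The libraries measured the host gene; snoRNA levels are not analysed here.

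Nucleolar genes were lower in GFP-low than in GFP-high cells in both genotypes. Levels are given in CPM, a gene's counts relative to a library size scaled with TMM, a method that allows for differences in composition. Changes are log2 fold changes of GFP-low minus GFP-high, tested with edgeR over all genes at an adjusted p under 0.05. In WT mice 33 of the 50 fell, 0 rose in edgeR or DESeq2 and 17 did not pass, while 21.4% of all 11293 genes tested fell and 22% rose. An unadjusted p under 0.05 was found for 39 of the 50 (78%) and for 51.2% of all genes. In KO mice 34 fell, 2 rose (Bop1 and Bysl) and 14 did not pass, against 24.4% of 11294 genes that fell and 26.2% that rose, 50.5% in all. Both genotypes shared 29 of the falls. Another 4 (Rrp9, Nolc1, Gnl2 and Heatr1) passed in WT alone and 5 (Gnl3l, Imp3, Ddx21, Nip7 and Ebna1bp2) in KO alone, and the test of that difference between genotypes passed for none of them. With the mouse as a block, which uses that both libraries come from 1 animal, Nolc1, Gnl2 and Heatr1 fell in KO too and Imp3, Ddx21 and Nip7 in WT too. Brix1 then fell in both, Noc4l in WT and Tsr1 in KO, so that 38 fell in WT (25.9% of all genes) and 39 in KO (27.9%). The median log2 fold change was -0.47 in WT and -0.38 in KO, with -0.01 for all genes in both, and 45 and 44 of the 50 values were below 0. In these bulk libraries, fewer cells of a type and less RNA per cell cannot be told apart.

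The size of the difference varied between mice but not its direction. The mean log2 CPM of the 50 genes was 6.23 ± 0.06 (SD, n = 5) in WT GFP-high, 5.82 ± 0.10 in WT GFP-low, 6.15 ± 0.05 in KO GFP-high and 5.76 ± 0.15 in KO GFP-low libraries. All GFP-high libraries, at 6.06 to 6.30, lay above all GFP-low libraries, at 5.51 to 5.97. Within a mouse, the median difference between its 2 libraries over the 50 genes was -0.45, -0.43, -0.36, -0.35 and -0.61 in WT and -0.28, -0.40, -0.43, -0.61 and -0.39 in KO. Of the 50 genes, 42 were lower in GFP-low cells of all 5 WT mice, which held for 27.1% of all genes, and 40 in all 5 KO mice (29.2%). All GFP-low libraries lay below all GFP-high libraries, without overlap, for 30 of the 50 in WT (13.7% of all genes) and 25 in KO (17.3%). They lay above without overlap for 0 of the 50 in WT (15% of all genes) and 2 in KO (18.1%). WT mouse 8 and KO mouse 5 had the lowest GFP-low values, and WT mouse 7 had the highest value in both populations.

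**Figure D1:**
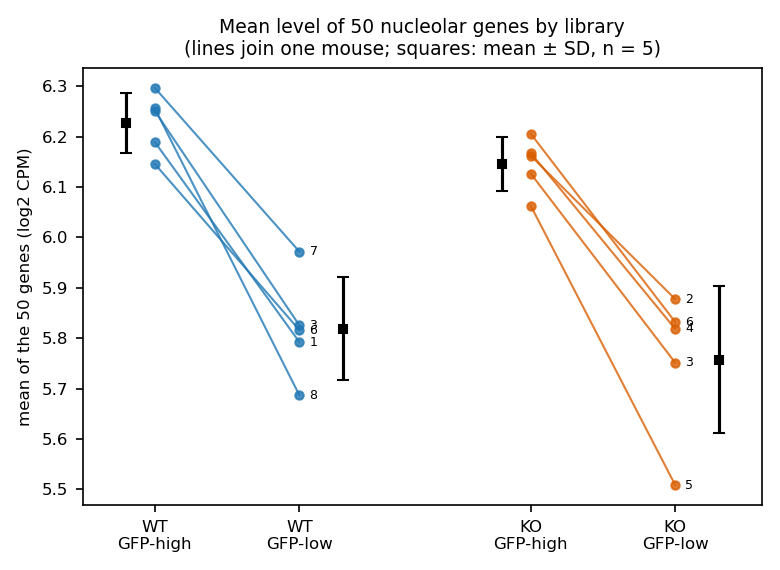
Mean log2 CPM of the 50 genes in each of 20 libraries (circles), with lines joining the GFP-high and GFP-low library of one mouse, mouse numbers at the right of each pair, and squares for the mean ± SD of 5 libraries. All 10 lines fall, and the GFP-low library of KO mouse 5 is the lowest at 5.51.

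As a share of all counts, the 50 genes made up 0.709% ± 0.056 (SD, n = 5) in WT GFP-high and 0.706% ± 0.032 in KO GFP-high libraries, and 0.399% ± 0.070 and 0.422% ± 0.057 in the GFP-low libraries. The share takes no account of composition, and Paneth cell transcripts took 15.2% of the counts in WT GFP-low against 4.66% in WT GFP-high libraries. With library totals in place of TMM, the median of the 50 genes was -0.82 in WT and -0.64 in KO, while that of all genes moved to -0.37 and -0.27, so that the 50 lay below all genes by a like distance on either scale. The plot of their distribution shows the shift against all genes in both population comparisons and medians near 0 between genotypes.

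**Figure D2:**
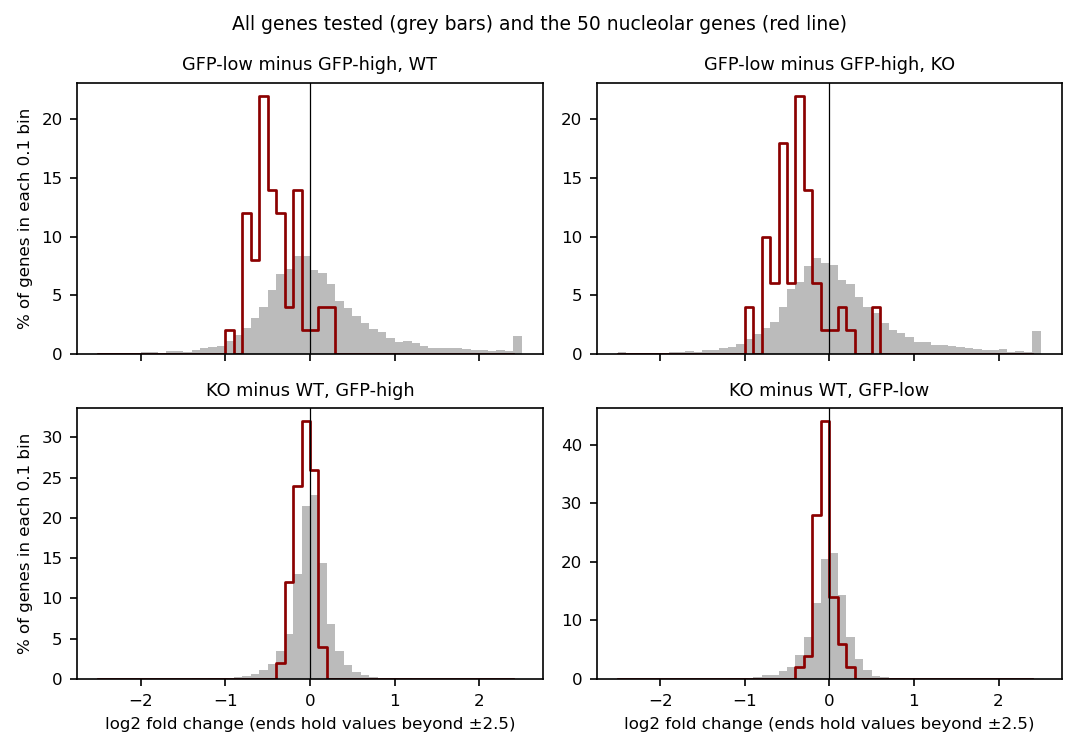
Share of genes in each bin of log2 fold change, for all genes tested (grey bars) and the 50 nucleolar genes (red line), in 4 comparisons. In the upper panels the red line lies left of 0 with medians of -0.47 and -0.38; in the lower panels, KO minus WT, it lies near 0 with medians of -0.07 and -0.06.

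Levels of the 50 genes spanned a wide range. Per kilobase of coding length in GENCODE M21, Npm1 was the highest in WT GFP-high cells at 1236 ± 137 CPM per kb (SD, n = 5), followed by Nop10 at 868 ± 65.1 and Nhp2 at 804 ± 68.6, which differed from each other by less than their spread. The lowest was Utp20 at 2.22 ± 0.21, then Rrp12 at 3.06 ± 0.45 and Heatr1 at 3.71 ± 0.25 CPM per kb. In GFP-low cells of both genotypes Nop10, which did not pass the test between populations, stood above Npm1, which fell. The values were 769 ± 98.4 against 727 ± 115 CPM per kb in WT and 716 ± 104 against 680 ± 63 in KO. In either genotype the gap was smaller than their spread. Coding length leaves out untranslated regions, so genes with long ones are overstated on this scale. The fewest counts of any of the 50 in a library were 97, for Imp3.

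**Figure D3:**
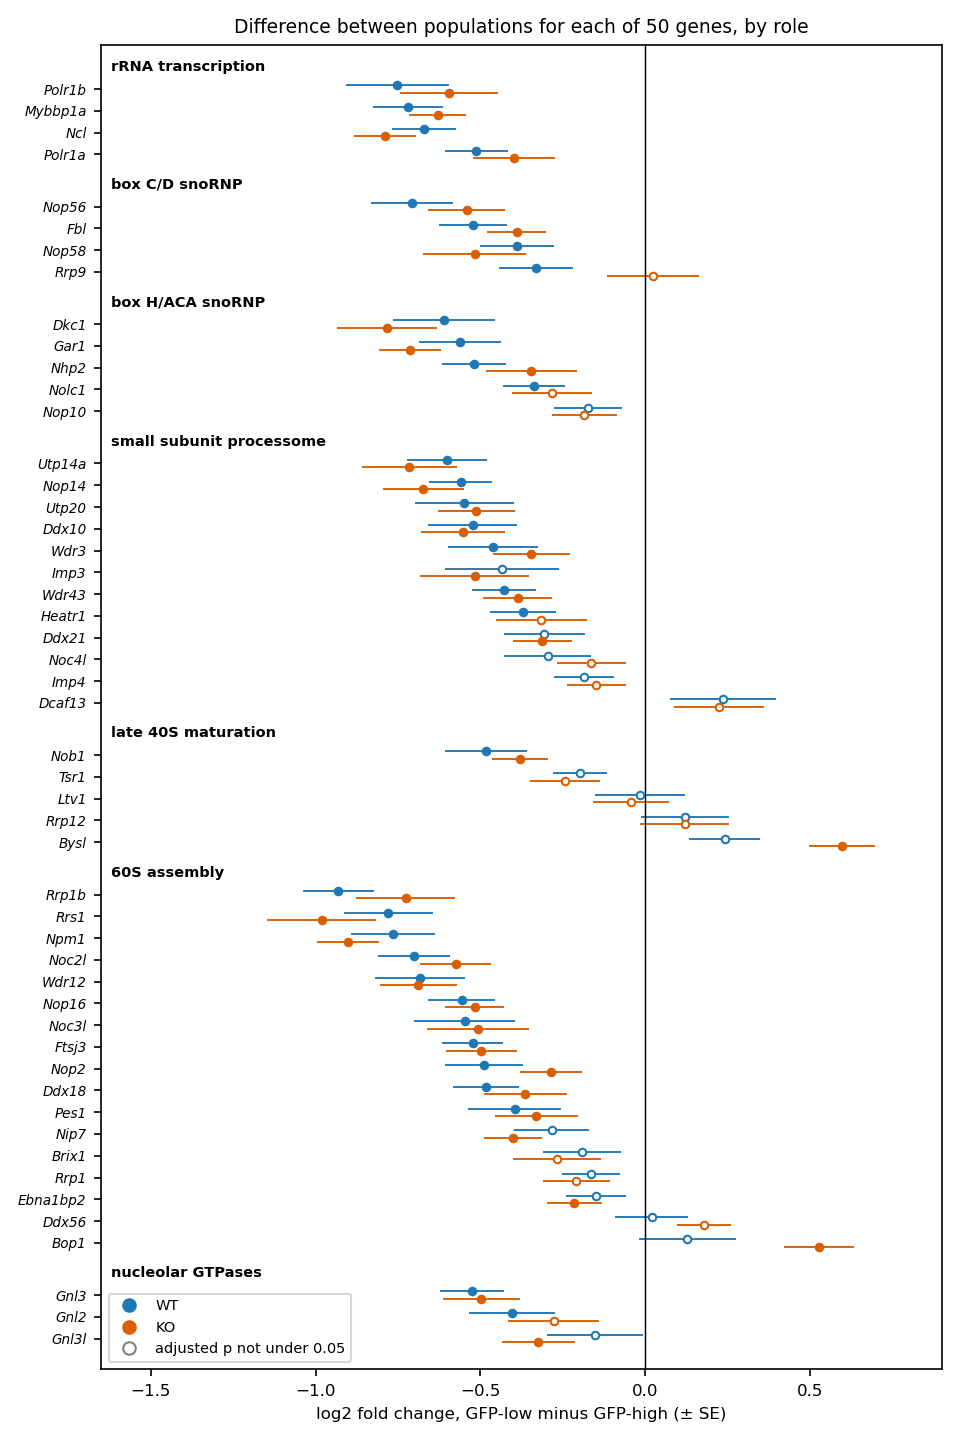
Log2 fold change of GFP-low minus GFP-high (± SE) for each of the 50 genes in WT (blue) and KO (orange), grouped by role; open circles did not pass an adjusted p under 0.05. All 4 rRNA transcription genes are filled and left of 0, while late 40S maturation genes lie on both sides of 0.

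All 4 rRNA transcription genes fell in both genotypes, with medians of -0.70 in WT and -0.61 in KO. Ncl encodes nucleolin, an abundant RNA-binding protein that acts in ribosomal DNA transcription and early processing (chr1:86344719-86359400, - strand, GRCm38). Its level was 793, 758, 719.6, 777 and 828 CPM in WT GFP-high libraries and 474, 497, 545, 499.9 and 419 CPM in WT GFP-low libraries. In KO mice it was 718, 797, 791, 742 and 826 CPM in GFP-high and 517, 443, 438, 376 and 449.5 CPM in GFP-low libraries. Every GFP-high library stood above every GFP-low library, with log2 fold changes of -0.67 ± 0.10 (SE) in WT (edgeR, adjusted p = 0.00016) and -0.79 ± 0.09 in KO (edgeR, adjusted p = 1.18e-05). Polr1a encodes the largest subunit of RNA polymerase I. It stood at 44.4, 43.4, 45.6, 50.04 and 52.9 CPM in WT GFP-high and 35.5, 29.0, 33.1, 36.0 and 32.2 CPM in WT GFP-low libraries, which do not overlap. Its KO libraries, at 43.4, 35.6, 51.4, 39.9 and 49.8 CPM in GFP-high and 38.5, 37.1, 32.6, 28.4 and 29.1 CPM in GFP-low cells, overlapped, since GFP-high cells of KO mouse 3 were lower than GFP-low cells of KO mice 2 and 3. The log2 fold changes of Polr1a were -0.51 ± 0.10 and -0.40 ± 0.12 (edgeR, adjusted p = 0.00112 and 0.0153). Its partner subunit Polr1b fell by more in both genotypes (-0.75 ± 0.16 in WT and -0.60 ± 0.15 in KO), as did Mybbp1a, a nucleolar protein that binds Myb (-0.72 ± 0.11 and -0.63 ± 0.09), but these differences between genes were not tested.

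Of the 4 genes of box C/D particles, whose core proteins carry the methylation guides printed above, 4 fell in WT and 3 in KO, with medians of -0.46 and -0.45. Nop56, a scaffold protein of the particle, was at 199, 182, 188, 161 and 176 CPM in WT GFP-high and 112, 122, 131, 109 and 79.3 CPM in WT GFP-low libraries. In KO mice the values were 171, 175, 179, 156 and 186 CPM in GFP-high and 129, 134, 131, 85.4 and 110.0 CPM in GFP-low libraries. The populations did not overlap in either genotype, and GFP-low cells of WT mouse 8 and KO mouse 5 held the least. The log2 fold changes were -0.71 ± 0.13 (SE) and -0.54 ± 0.12 (edgeR, adjusted p = 0.000712 and 0.00159). Fbl encodes fibrillarin, the methyltransferase of the particle. In GFP-high libraries Fbl stood at 259.8, 249.4, 209, 255 and 236 CPM in WT and 240.1, 261, 212, 255 and 258 CPM in KO. In GFP-low libraries it stood at 179.6, 139.9, 158, 173 and 191 CPM in WT and 209, 188, 177, 163 and 191 CPM in KO, again without overlap within a genotype. Its log2 fold changes were -0.52 ± 0.10 and -0.39 ± 0.09 (edgeR, adjusted p = 0.0015 and 0.0025), and those of Nop58, the paralogue of Nop56, -0.39 ± 0.11 and -0.52 ± 0.16 (adjusted p = 0.0145 and 0.0137). Rrp9, which binds the U3 snoRNA, fell in WT (-0.33 ± 0.11, edgeR, adjusted p = 0.0288) and stood at 0.02 ± 0.14 in KO (edgeR, adjusted p = 0.898). The fall of Rrp9 in WT did not pass once GFP-high cells of mouse 6 or of mouse 8, or GFP-low cells of mouse 3 or of mouse 8, were left out (edgeR, adjusted p between 0.0533 and 0.0835).

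Of the 5 genes of box H/ACA particles, which guide pseudouridylation, 4 fell in WT and 3 in KO, with medians of -0.52 and -0.35. Dkc1, which encodes the pseudouridine synthase dyskerin, fell by 0.61 ± 0.15 (log2, SE) in WT and by 0.78 ± 0.15 in KO. Gar1, another core protein, stood at 22.2, 16.3, 16.9, 17.4 and 20.8 CPM in WT GFP-high and 12.9, 12.9, 13.0, 10.6 and 13.8 CPM in WT GFP-low libraries. The KO libraries gave 21.3, 21.6, 20.2, 19.0 and 21.3 CPM in GFP-high and 14.0, 12.6, 11.5, 12.4 and 12.0 CPM in GFP-low cells, so that neither genotype had an overlap. Its log2 fold changes were -0.56 ± 0.12 and -0.71 ± 0.09 (edgeR, adjusted p = 0.00304 and 3.25e-05). Nhp2 binds the guide RNA itself, and its transcript was at 378, 410.1, 336, 338 and 383 CPM in WT GFP-high and 263, 282, 244, 274 and 225 CPM in WT GFP-low libraries. In KO mice it was at 314, 299, 269, 294 and 375 CPM in GFP-high and 227, 214, 190.0, 253 and 327 CPM in GFP-low libraries, where GFP-low cells of KO mouse 6 exceeded the GFP-high cells of 4 KO mice. The log2 fold changes of Nhp2 were -0.52 ± 0.10 in WT (edgeR, adjusted p = 0.00101) and -0.35 ± 0.14 in KO (edgeR, adjusted p = 0.0495). Its exons overlap by 44 bases those of Rmnd5b on the opposite strand, which rose in both genotypes (0.36 ± 0.11 and 0.58 ± 0.12). All values of Nhp2 were whole numbers. The fall of Nhp2 in KO did not pass without any 1 of 8 of the 10, the GFP-high library of mouse 4 and the GFP-low library of mouse 6 being the exceptions (edgeR, adjusted p between 0.0625 and 0.134). The chaperone-like Nolc1 fell in WT (-0.34 ± 0.09) and was at -0.28 ± 0.12 in KO, and the small core protein Nop10 passed in neither (-0.17 ± 0.10 and -0.18 ± 0.10).

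Of the 12 small subunit processome genes, which act on the precursor of the small subunit, 7 fell in WT and 8 in KO, with medians of -0.43 and -0.37. Nop14 was the leading one by p in both genotypes, at 72.5, 69.8, 76.1, 72.0 and 67.8 CPM in WT GFP-high and 49.0, 54.0, 52.4, 47.7 and 39.8 CPM in WT GFP-low libraries. Its KO values were 68.5, 65.9, 74.9, 61.1 and 72.1 CPM in GFP-high and 47.2, 39.3, 51.0, 31.3 and 44.2 CPM in GFP-low libraries. Again no library of one population reached the other within a genotype, and the log2 fold changes were -0.56 ± 0.10 and -0.67 ± 0.12 (edgeR, adjusted p = 0.000547 and 0.000434). Utp14a (-0.60 in WT and -0.72 in KO), Utp20 (-0.55 and -0.51), the helicase Ddx10 (-0.52 and -0.55), Wdr3 (-0.46 and -0.35) and Wdr43 (-0.43 and -0.39) fell in both. Heatr1 fell in WT (-0.37) and was at -0.32 in KO, whereas Imp3 and the helicase Ddx21 fell in KO (-0.52 and -0.31) and were at -0.44 and -0.31 in WT. Noc4l and Imp4 passed in neither, at -0.30 and -0.19 in WT. Dcaf13 stood apart, at 0.24 ± 0.16 in WT and 0.22 ± 0.14 in KO (edgeR, adjusted p = 0.254 and 0.184). With the mouse as a block its WT value of 0.23 passed (edgeR, adjusted p = 0.047), and with library totals it was -0.14.

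The late 40S maturation genes did not move together, with 1 of 5 lower in each genotype and medians of -0.02 and -0.04. Nob1, the endonuclease that makes the last cut of the small subunit rRNA, was the one that fell. Its values were 60.4, 69.9, 58.6, 78.2 and 61.5 CPM in WT GFP-high and 41.9, 43.7, 53.5, 56.7 and 39.2 CPM in WT GFP-low libraries. They were 57.8, 58.7, 55.7, 52.9 and 54.5 CPM in KO GFP-high and 48.0, 39.1, 39.9, 40.3 and 45.8 CPM in KO GFP-low libraries, with no overlap in either genotype. The log2 fold changes of Nob1 were -0.48 ± 0.13 and -0.38 ± 0.09 (edgeR, adjusted p = 0.00802 and 0.00214). Tsr1 (-0.20 ± 0.08 and -0.24 ± 0.11), Ltv1 (-0.02 ± 0.14 and -0.04 ± 0.12) and Rrp12 (0.12 ± 0.13 and 0.12 ± 0.14), factors of pre-40S particles, passed in neither. Tsr1 shares 1240 bases of exon sequence with Srr on the opposite strand, a gene that rose in both genotypes (0.80 ± 0.18 and 0.69 ± 0.18). All values of Tsr1 were fractional, and the part of the overlap was not tested.

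Bysl, which encodes the pre-40S factor bystin (chr17:47599331-47611492, - strand), went the other way in KO. It stood at 41.0, 41.8, 31.1, 34.8 and 32.7 CPM in KO GFP-high and 50.6, 52.2, 57.9, 54.7 and 56.2 CPM in KO GFP-low libraries, so all GFP-low libraries were higher. Its log2 fold change was 0.60 ± 0.10 (SE) in KO (edgeR, adjusted p = 0.000219). Its WT values, 41.8, 49.7, 34.8, 45.3 and 43.3 CPM in GFP-high and 56.1, 51.4, 48.5, 52.1 and 45.7 CPM in GFP-low libraries, overlapped, although each of the 5 mice was higher in GFP-low cells. The WT log2 fold change of 0.24 ± 0.11 did not pass (edgeR, adjusted p = 0.0849). With the mouse as a block it was 0.25 and passed (adjusted p = 0.0462), without the GFP-high library of mouse 3 it was 0.30 and passed (adjusted p = 0.0461), and with library totals it was -0.11. Bysl shares 361 bases of exon sequence with Ccnd3 on the opposite strand, a cyclin gene that rose in both genotypes (0.57 ± 0.17 in WT, edgeR, adjusted p = 0.0192, and 0.80 ± 0.17 in KO, adjusted p = 0.00153). All values of Bysl in the tables were fractional, which RSEM gives where reads fit more than 1 entry, and unless the counting used strand the reads of the pair cannot be told apart.

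The 60S assembly genes were the largest role, and 11 of 17 fell in WT and 13 in KO, with medians of -0.49 and -0.40. Npm1 encodes nucleophosmin, an abundant nucleolar chaperone (chr11:33152287-33163206, - strand). It was at 924, 1179, 988, 1191 and 1136 CPM in WT GFP-high and 579.6, 683, 573, 793 and 556 CPM in WT GFP-low libraries. In KO mice it was at 1084, 1186, 1218, 1014 and 1108 CPM in GFP-high and 628, 549.6, 616, 526 and 657 CPM in GFP-low libraries. The GFP-low library of WT mouse 7 was the highest of its population and still below all GFP-high libraries; the log2 fold changes were -0.77 ± 0.13 (SE) and -0.90 ± 0.09 (edgeR, adjusted p = 0.000468 and 3.57e-06).

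Rrp1b, a nucleolar protein of large subunit processing, had the smallest p of the 50 genes in WT. Its level was 78.7, 85.9, 76.95, 83.9 and 73.0 CPM in WT GFP-high and 42.7, 42.0, 40.7, 50.1 and 33.4 CPM in WT GFP-low libraries. KO libraries were at 65.2, 64.7, 63.0, 58.9 and 82.7 CPM in KO GFP-high and 42.8, 40.3, 49.3, 25.8 and 42.5 CPM in KO GFP-low libraries. The populations were apart in both genotypes, with log2 fold changes of -0.93 ± 0.11 and -0.73 ± 0.15 (edgeR, adjusted p = 3.24e-05 and 0.0012). Its relative Rrp1 passed in neither, at -0.16 ± 0.09 and -0.21 ± 0.10. Rrs1, which helps to recruit the 5S particle, had the largest fall of the 50 in KO (-0.98 ± 0.16, against -0.78 ± 0.14 in WT), at a low level of 6.80 ± 1.19 CPM (SD, n = 5) in KO GFP-low against 13.5 ± 2.63 CPM in KO GFP-high libraries. Noc2l (-0.70 in WT and -0.57 in KO), Wdr12 (-0.68 and -0.69), Nop16 (-0.56 and -0.52), Noc3l (-0.55 and -0.51), the methyltransferases Ftsj3 (-0.52 and -0.50) and Nop2 (-0.49 and -0.29), the helicase Ddx18 (-0.48 and -0.36) and Pes1 (-0.40 and -0.33) fell in both, Pes1 losing its call without any 1 of 6 libraries in either genotype. Nip7 and Ebna1bp2 fell in KO (-0.40 and -0.21) and were at -0.28 and -0.15 in WT. Brix1 (-0.19 and -0.27) and the helicase Ddx56 (0.02 and 0.18) passed in neither.

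Bop1, the partner of Pes1 and Wdr12 in one complex, was the only 60S assembly gene of the 17 to rise, and it did so in KO. It stood at 66.4, 59.97, 56.2, 61.6 and 71.1 CPM in KO GFP-high and 85.2, 86.2, 79.4, 114 and 85.4 CPM in KO GFP-low libraries, without overlap (log2 fold change 0.53 ± 0.11 (SE), edgeR, adjusted p = 0.00103). The WT libraries, 74.2, 69.3, 56.3, 82.8 and 74.8 CPM in GFP-high and 100.2, 59.2, 68.5, 89.3 and 73.2 CPM in GFP-low cells, overlapped widely, and the log2 fold change was 0.13 ± 0.15 (edgeR, adjusted p = 0.505). GFP-low cells of KO mouse 5 were the highest for Bop1 and the lowest for the mean of the 50 genes. Pes1 and Wdr12 fell in the same KO libraries. Bop1 shares 50 bases of exon sequence with Mroh1 on the opposite strand, which did not pass in either genotype (-0.11 ± 0.15 in WT and -0.09 ± 0.11 in KO); with library totals the KO rise did not pass, and the WT value was -0.21.

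Of the 3 nucleolar GTPases 2 fell in each genotype, with medians of -0.40 and -0.32. Gnl3 encodes nucleostemin, a nucleolar GTPase known from stem and proliferating cells. Its GFP-high libraries were at 82.3, 98.1, 99.8, 101.5 and 99.2 CPM in WT and 83.2, 78.9, 105, 75.4 and 83.7 CPM in KO. Its GFP-low libraries were at 57.2, 70.4, 75.1, 68.4 and 62.9 CPM in WT and 66.8, 61.3, 66.1, 46.7 and 58.9 CPM in KO. The populations did not overlap within a genotype, and the log2 fold changes were -0.53 ± 0.10 and -0.50 ± 0.12 (edgeR, adjusted p = 0.00097 and 0.00301). Of its relatives, Gnl2 fell in WT (-0.40 ± 0.13) and was at -0.28 ± 0.14 in KO, and Gnl3l fell in KO (-0.32 ± 0.11) and was at -0.15 ± 0.15 in WT.

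**Figure D4:**
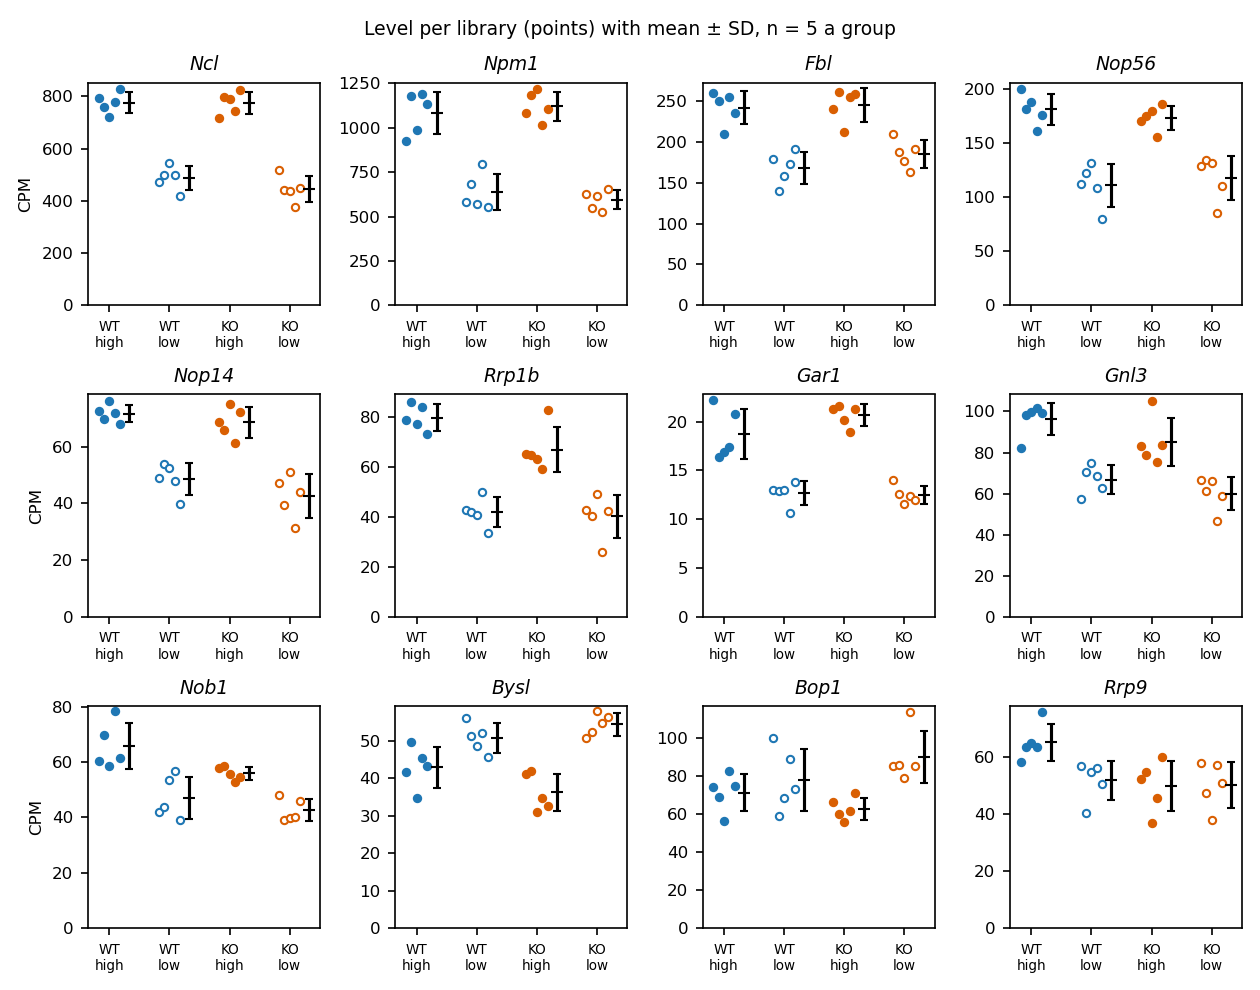
CPM in each library (circles, filled for GFP-high and open for GFP-low, WT blue and KO orange) with the mean ± SD of 5 libraries, for 12 of the genes; each axis starts at 0. Ncl, Npm1 and Nop56 separate the populations in both genotypes, whereas Bysl and Bop1 are higher in GFP-low cells of KO mice.

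Whether the counting used strand is not given, and 21 of the 50 genes share exon sequence with another annotated gene. Among the 29 that do not, 16 fell in WT and 20 in KO, and 0 rose in either genotype. Of all 50, 33 fell in WT and 34 in KO. Of all genes tested, 21.4% fell and 22% rose in WT, and 24.4% fell and 26.2% rose in KO. The part of the overlaps in these counts was not tested. The tables held fractional values for 8 of the 50 genes, Bysl, Wdr12, Tsr1, Nip7, Noc2l, Nop58, Polr1b and Heatr1.

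Many other transcripts moved with the populations. All 14 stem cell markers fell in both genotypes (medians -1.97 in WT and -2.28 in KO; Lgr5 itself -2.97 and -3.91), with a summed level of 4683 to 6354 CPM in GFP-high and 879 to 1411 CPM in GFP-low libraries. All 20 Paneth, all 11 goblet and all 11 tested enteroendocrine markers rose in both, as did 11 of 12 enterocyte markers; of 8 tuft cell markers 8 rose in WT and 7 in KO. Summed Paneth markers ranged from 18140 to 70910 CPM in WT GFP-high, 72180 to 318000 in WT GFP-low, 21140 to 54130 in KO GFP-high and 30060 to 149300 in KO GFP-low libraries. Goblet markers ranged from 2576 to 6880 CPM in GFP-high and 26900 to 81700 CPM in GFP-low libraries. Enterocyte markers summed to 482 to 764 CPM in GFP-high and 1824 to 4360 CPM in GFP-low libraries, enteroendocrine markers to 145 to 626 and 1085 to 2898 CPM, and tuft cell markers to 10.1 to 32.4 and 21.5 to 164 CPM. Of 18 genes each, 11 of G2 and mitosis fell in WT and 15 in KO, and 12 of S phase in WT and 11 in KO, where 1 rose. Of 18 dissociation stress genes 7 rose in WT and 14 in KO, and of 13 mitochondrially encoded genes 0 passed in edgeR (0 in WT and 1 in KO with an unadjusted p under 0.05). Of 6 lymphocyte markers tested 1 fell, of 4 myeloid markers 2 rose, 1 of them being Lyz2, which is also counted with the Paneth markers, and 1 fell, and the 1 stromal marker tested, Vim, rose, in both genotypes. Markers held for both populations summed to at most 95.6 CPM for lymphocytes, 81.2 CPM for myeloid cells and 32.8 CPM for stroma in any library. Ptprc, Cd3e, Csf1r, Col1a1 and Pecam1 were not among the entries. Gzma, Gzmb, Ccl5, Cd7, Nkg7 and Lck of lymphocytes and Cd68, Lyz2, Itgam and Cd14 of myeloid cells were entries for both populations. Cd3g and Fcer1g were entries for GFP-high cells only. The part of these cells in the fall of the nucleolar genes was not tested. Without the WT GFP-low libraries of mice 3 and 8, where Paneth markers took 23.2% and 22.6% of counts, 27 of the 50 fell and 0 rose, with a median of -0.39, while 14.5% of all genes fell at a median of -0.01.

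Many other genes of ribosome synthesis, outside the 50, fell too. Of 15 other RNA polymerase I genes 6 fell in WT and 9 in KO (medians -0.27 and -0.31), among them Cd3eap (-0.67 ± 0.10 and -0.63 ± 0.11) and Polr1c (-0.58 ± 0.09 and -0.55 ± 0.08), both polymerase subunits. For 43 other small subunit genes the counts were 20 lower and 1 higher in WT and 17 lower and 2 higher in KO (medians -0.32 and -0.22); Tsr2, a chaperone of a ribosomal protein, fell (-0.75 ± 0.11 and -0.63 ± 0.11) and the kinase gene Riok3 rose (0.62 ± 0.11 and 0.41 ± 0.12). Among 46 other large subunit genes 21 fell and 2 rose in each genotype (medians -0.30 and -0.26), with Tma16 at -0.71 ± 0.12 and -0.87 ± 0.12 and Rrp15 at -0.59 ± 0.10 and -0.53 ± 0.10. Genes that help to assemble snoRNPs fell in 5 of 11 cases in WT and 6 in KO (medians -0.41 and -0.34), including Tcof1, the gene of treacle (-0.71 ± 0.10 and -0.67 ± 0.10), and Ruvbl1 (-0.60 ± 0.10 and -0.49 ± 0.11). Of 13 genes of the RNA exosome, which trims the precursors, 7 fell in WT and 6 in KO (medians -0.34 and -0.27), with Exosc8 at -0.80 ± 0.11 and -0.69 ± 0.12 and Exosc5 at -0.57 ± 0.10 and -0.37 ± 0.10. All genes tested had medians of -0.01, and 21.4% and 24.4% of them fell.

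**Figure D5:**
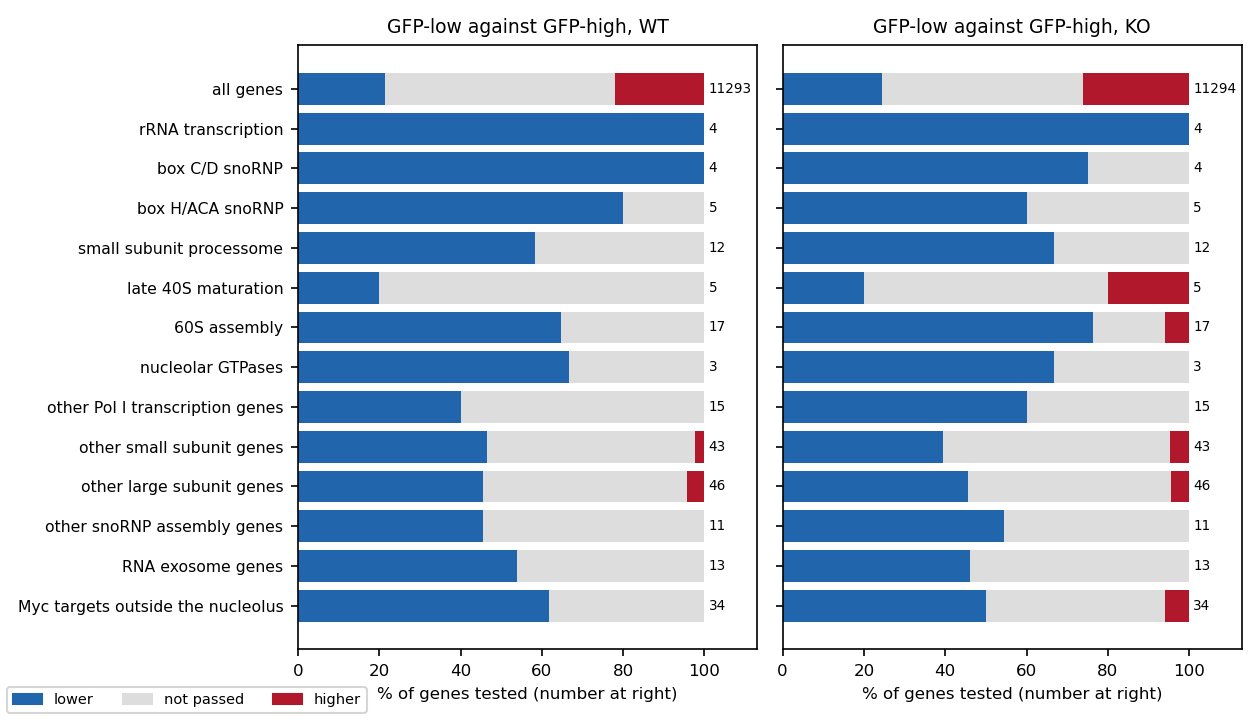
Percent of genes that were lower (blue), not passed (grey) or higher (red) in GFP-low than in GFP-high cells, in WT (left) and KO (right), for all genes, the 7 roles of the 50 genes and 6 further lists; the number tested stands at the right of each bar. Lower genes take 21.4% of all genes in WT and 24.4% in KO, and 100% of the 4 rRNA transcription genes in both.

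Myc fell between the populations as well. It stood at 73.9, 119, 149, 169 and 108 CPM in WT GFP-high and 53.9, 45.3, 49.3, 88.7 and 68.6 CPM in WT GFP-low libraries. In KO it stood at 65.0, 84.2, 63.7, 79.7 and 80.5 CPM in KO GFP-high and 34.7, 47.8, 38.3, 35.1 and 31.8 CPM in KO GFP-low libraries. The WT libraries overlapped, because GFP-high cells of mouse 1 were low and GFP-low cells of mouse 7 were high, while the KO libraries did not. The log2 fold changes were -1.02 ± 0.23 (SE) in WT (edgeR, adjusted p = 0.00319) and -0.98 ± 0.12 in KO (edgeR, adjusted p = 1.97e-05). WT mouse 7 was high for Myc in both populations and also had the highest mean of the 50 genes in both. The other WT mice were mixed, and whether Myc and the mean go together over mice was not tested. Mouse 1 had the lowest Myc in WT GFP-high cells (73.9 CPM) and the next to lowest WT GFP-high mean of the 50 genes (log2 CPM 6.19). Mouse 6 had the next highest Myc in GFP-high cells (149 CPM) and the lowest WT GFP-high mean of the 50 genes (log2 CPM 6.15). Mouse 8 had the next highest Myc in GFP-low cells (68.6 CPM) and the lowest WT GFP-low mean (5.69). Of 11 genes of the Myc network 5 fell and 3 rose in each genotype: Mycl fell (-1.19 ± 0.16 in WT and -0.89 ± 0.12 in KO), as did Mxd3, Mxi1 and Mga, and Mlx (1.11 ± 0.11 and 1.23 ± 0.09), Mxd1 (1.29 ± 0.28 and 1.16 ± 0.13) and Mxd4 rose. Mxd1, Mxd3, Mxd4 and Mxi1 are of the family that competes with Myc for Max. Max, the common partner, was at 0.07 ± 0.11 and 0.05 ± 0.11. Of 34 known Myc targets outside the nucleolus 21 fell and 0 rose in WT and 17 fell and 2 rose in KO (medians -0.39 and -0.26), including Impdh2 of guanine nucleotide synthesis (-0.96 ± 0.11 and -0.88 ± 0.08) and the repair endonuclease gene Apex1 (-0.91 ± 0.12 and -0.81 ± 0.08). Beside these counts, 21.4% of all genes tested fell and 22% rose in WT, and 24.4% fell and 26.2% rose in KO. Whether Myc acts on the 50 genes in these cells was not tested.

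Few of the promoters held the letters of the Myc site. The RefSeq promoter table (GRCm38.p6) held 42 of the 50 genes, and the 250 bases before each start were searched on both strands. CACGTG, the E-box that Myc prefers and which reads the same on both strands, lay in 2 of 42 genes (4.76%), Nop2 at 60 and Imp4 at 121 bases before the start, against 875 of 8710 genes held by both tables (10%). CCGGAAG, the core of ETS factor sites, lay in 9 of 42 (21.4%, against 16.8%), CCAAT of NF-Y in 15 (35.7%, against 41.3%) and the NRF1 motif in 0 (against 2.03%), and none of the 4 motifs contains another. No match says only that the letters are not in this window, and Myc can bind other sequences and sites further away. Nop2 fell in both genotypes and Imp4 in neither.

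Printed are both promoters with an E-box, and those of Ncl (a strong fall, no E-box) and Bysl (a rise in KO, no motif found), as 250 bases 5′ to 3′ on the gene's strand ending at the base before the start, with the E-box, the ETS core and the NF-Y motif on either strand in capitals:
Nop2 (chr6:125131633-125131882, + strand): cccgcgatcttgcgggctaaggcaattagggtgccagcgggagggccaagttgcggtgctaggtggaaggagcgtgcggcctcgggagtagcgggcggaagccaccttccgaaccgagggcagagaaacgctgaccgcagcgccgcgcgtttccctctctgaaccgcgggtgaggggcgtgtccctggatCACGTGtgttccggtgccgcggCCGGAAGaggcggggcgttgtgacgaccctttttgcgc
Imp4 (chr1:34439579-34439828, + strand): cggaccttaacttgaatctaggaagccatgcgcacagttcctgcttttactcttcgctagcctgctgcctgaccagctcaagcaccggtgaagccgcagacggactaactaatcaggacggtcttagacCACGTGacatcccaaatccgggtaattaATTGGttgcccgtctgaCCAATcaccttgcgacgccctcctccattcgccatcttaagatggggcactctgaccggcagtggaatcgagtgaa
Ncl (chr1:86359456-86359705, - strand): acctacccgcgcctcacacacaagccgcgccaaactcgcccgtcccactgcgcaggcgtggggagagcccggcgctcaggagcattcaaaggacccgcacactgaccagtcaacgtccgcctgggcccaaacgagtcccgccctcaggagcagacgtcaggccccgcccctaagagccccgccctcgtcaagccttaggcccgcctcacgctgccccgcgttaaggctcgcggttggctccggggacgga
Bysl (chr17:47611493-47611742, - strand): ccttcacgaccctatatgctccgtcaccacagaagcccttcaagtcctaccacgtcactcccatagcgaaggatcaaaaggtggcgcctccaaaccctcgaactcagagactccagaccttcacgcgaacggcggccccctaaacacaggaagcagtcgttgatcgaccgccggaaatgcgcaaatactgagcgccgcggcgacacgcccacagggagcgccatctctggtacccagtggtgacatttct

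Between KO and WT mice, none of the 50 genes passed the test in either population. In GFP-high cells 0 of 50 passed in edgeR and in DESeq2, beside 0% of 11745 genes in edgeR, and 7 had an unadjusted p under 0.05 (14%, against 9.79% of all genes). The log2 fold changes of KO minus WT lay between -0.38 and 0.15 with a median of -0.07, against 0.01 for all genes, and 35 of 50 were below 0. In GFP-low cells 0 of 50 passed in edgeR and in DESeq2, beside 0.00849% of 11778 genes in edgeR, and 0 had an unadjusted p under 0.05 (6.32% of all genes did). There the values lay between -0.31 and 0.21, with a median of -0.06, and 39 of 50 were below 0. Both genotype comparisons use different libraries of the same mice. Markers of cell types moved beside these values without passing in edgeR, and their part was not tested. In GFP-high cells an unadjusted p under 0.05 was found for 15 of 18 genes of G2 and mitosis (median 0.36), 6 of 11 goblet (-0.63), 7 of 11 enteroendocrine (-0.94), 5 of 8 tuft (-0.89), 2 of 14 stem (-0.01), 1 of 12 enterocyte (-0.05) and 0 of 20 Paneth markers (-0.16). It was also found for 1 of 7 lymphocyte (0.99) and 2 of 5 myeloid markers (0.22), and all 7 lymphocyte markers were above 0. In GFP-low cells the counts were 5 of 18 genes of G2 and mitosis (median 0.30), 7 of 14 stem (-0.26), 8 of 14 enterocyte (-0.42), 3 of 20 Paneth (-0.75), 1 of 11 goblet (-0.04), 0 of 13 enteroendocrine (-0.02) and 0 of 10 tuft markers (-0.34). They were 0 of 6 for lymphocyte (0.73) and 0 of 4 for myeloid markers (-0.02), and all 6 lymphocyte markers were above 0.

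In GFP-high cells the smallest p values were those of Rrp9, Nop2 and Rrp1b, all lower in KO. Rrp9 stood at 58.3, 63.5, 64.7, 63.5 and 75.9 CPM in WT and 52.4, 54.6, 36.8, 45.6 and 59.9 CPM in KO GFP-high libraries, a log2 fold change of -0.38 ± 0.12 (SE) that did not pass (edgeR, adjusted p = 0.269). Its groups overlapped by 1 library, KO mouse 6, which exceeded WT mouse 1. Nop2, a methyltransferase of the large subunit rRNA, was at 72.1, 67.8, 65.5, 81.4 and 65.0 CPM in WT and 57.1, 64.7, 54.7, 59.96 and 55.5 CPM in KO, which do not overlap (-0.26 ± 0.08, edgeR, adjusted p = 0.287). Wdr43 also did not overlap, and such a separation towards lower values in KO held for 2 of the 50 genes and for 0.93% of all genes, and one towards higher values for 0 of the 50 and 0.947% of all genes. Rrp1b was lower in 4 of 5 KO libraries than in all WT libraries, KO mouse 6 being the exception (-0.25 ± 0.09, edgeR, adjusted p = 0.39).

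In GFP-low cells Rrs1, Imp3 and Nop58 had the smallest p values, all lower in KO, and the groups of each overlapped. Rrs1 was at 7.34, 7.69, 8.78, 9.74 and 8.15 CPM in WT and 8.52, 6.18, 6.602, 5.37 and 7.34 CPM in KO (-0.30 ± 0.16, edgeR, adjusted p = 0.798). Imp3 was at 6.96, 6.71, 8.69, 7.33 and 9.41 CPM in WT and 8.38, 5.31, 5.08, 6.49 and 6.20 CPM in KO (-0.31 ± 0.17, edgeR, adjusted p = 0.811). Nop58 was at 126, 167, 136, 159 and 114 CPM in WT and 120.5, 115, 149, 69.8 and 120.0 CPM in KO, where mouse 5 was below the other KO mice (-0.29 ± 0.17, edgeR, adjusted p = 0.827). Without that library its value was -0.16 (edgeR, adjusted p = 0.935). None of the 50 separated KO from WT in GFP-low cells, against 0.434% of all genes towards lower and 0.708% towards higher values. With library totals the median of the 50 in GFP-low cells was 0.09 in place of -0.06, beside 0.14 for all genes.

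Myc was lower in KO in both populations by about the same amount, at -0.72 ± 0.18 (SE) in GFP-high (edgeR, adjusted p = 0.184) and -0.71 ± 0.18 in GFP-low cells (edgeR, adjusted p = 0.731), and neither passed. DESeq2 called the GFP-high difference (-0.73, adjusted p = 0.00767) but not that in GFP-low cells (-0.71, adjusted p = 0.114). GFP-high libraries of WT mouse 1, at 73.9 CPM, lay within the KO range of 63.7 to 84.2 CPM, and the other 4 WT mice lay above it. The medians of the 50 nucleolar genes stood at -0.07 and -0.06 beside it. Of 35 Myc targets outside the nucleolus 0 passed in either population in edgeR (2 and 0 with an unadjusted p under 0.05), with medians of -0.04 and 0.03.

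The difference between populations was not shown to depend on the genotype for any of the 50 genes. In the interaction test over all 20 libraries 0 of 50 passed in edgeR and in DESeq2, beside 0% of 11296 genes in edgeR. An unadjusted p under 0.05 was found for 1 of the 50 (2%) and for 3.12% of all genes. The median was 0.02, against 0.00 for all genes, and the values lay between -0.21 and 0.39. The smallest p values were those of Bysl (0.34 ± 0.14 (SE), edgeR, adjusted p = 1), Bop1 (0.39 ± 0.19) and Rrp9 (0.34 ± 0.19), all towards a higher GFP-low value in KO. Bysl and Bop1, which rose in KO and not in WT, and Rrp9, which fell in WT and not in KO, were thus not shown to differ between genotypes. All 3 share exon sequence with a gene on the opposite strand, over 361 bases for Bysl, 50 for Bop1 and 20 for Rrp9. They were not alike in their counts, since all values of Bysl were fractional and all values of Bop1 and Rrp9 were whole. The part of the overlaps in these values was not tested. The partner of Rrp9 is Parp3, which rose in both genotypes (1.14 ± 0.27 in WT and 1.60 ± 0.26 in KO).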

How the data were processed

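The authors deposited 1 table of RSEM expected counts per gene for each population, with 10 libraries each; the submitters' processing notes name TopHat2, Bowtie2, RSEM and the mm10 build, and give no version; parameters and strand handling are not stated in these sources. In either table, 13.7% of the values were not whole, and every entry had a mean of at least 16.8 counts. Library totals ran from 20900404 to 27838392 counts, which sets the counting precision.

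The expected counts were rounded to whole numbers and tested with edgeR 4.0.16 in R 4.3.3 (TMM scaling, filterByExpr with a minimum count of 10, quasi-likelihood test, Benjamini-Hochberg adjustment over all genes, threshold 0.05). The comparisons were GFP-low minus GFP-high in each genotype, KO minus WT in each population, and their interaction over 20 libraries of 11296 genes named once in both tables. SE is the log2 fold change divided by the square root of F. CPM use TMM sizes, and log2 CPM a prior count of 2. The populations stand in separate tables of unnormalized counts, which were joined by gene name.

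Both populations come from the same mice, so mouse numbers pair them per the labels. The deviations of the 2 libraries of a mouse from their group means correlated at 0.169 to 0.625 in WT and 0.201 to 0.436 in KO. WT and KO mice share numbers only. Genes were given with every library where they had the smallest p of their role or comparison, passed against the majority, or are textbook members (Ncl, Npm1, Fbl, Polr1a, Gnl3, Myc); the 2 smallest p of each further list were named. Members and lists were chosen with earlier results of these data known, and the ETS, NF-Y and NRF1 motifs were added later. Alternatives were DESeq2 1.42.0, relative log expression scaling, library totals, no filter, unrounded counts, the mouse as a block and leaving out each library.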

Additional observations from a re-analysis of the deposited data

Results flagged for a closer look

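Among 80 checks of 20 genes in 4 groups of 5 libraries, 5 single libraries stood far from the rest of their group, and chance flags about 1 in 20 such checks. Rrp1b was at 82.7 CPM in the GFP-high library of KO mouse 6, with the next value at 65.2 CPM. Gnl3 was at 82.3 CPM in the GFP-high library of WT mouse 1, below the next at 98.1 CPM, and at 105.3 CPM in the GFP-high library of KO mouse 4, above the next at 83.7 CPM. Gar1 was at 10.6 CPM in the GFP-low library of WT mouse 7, with the next at 12.9 CPM. Bop1 was at 114.2 CPM in the GFP-low library of KO mouse 5, with the next at 86.2 CPM.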

How the results depend on the processing

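DESeq2, relative log expression scaling, no filter and unrounded counts each gave 33 lower and 0 higher of the 50 genes in WT and 34 lower and 2 higher in KO. Over 16 alternatives planned per comparison, 30 of 33 calls in WT and 28 of 36 in KO were kept in all of them; Pes1, Rrp9 and Gnl2 were lost in at least 1 in WT, and Nop2, Wdr3, Pes1, Bop1, Nhp2, Gnl3l, Ddx18 and Ebna1bp2 in KO. No called gene of the 50 was reversed in any of these.

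With library totals, 44 genes were lower in WT (43.3% of all genes) and 43 in KO (42% of all genes), where 1 was higher (15.7%), and the medians were -0.82 in WT, -0.64 in KO, 0.0886 for KO minus WT in GFP-low cells and 0.13 for the interaction. The medians of all genes moved with them, to -0.37, -0.27, 0.14 and 0.11. On that scale 5 genes of WT changed sign (Bop1 -0.21, Rrp12 -0.23, Dcaf13 -0.14, Ddx56 -0.33, Bysl -0.11), as did 4 in KO (Rrp9 -0.23, Rrp12 -0.13, Dcaf13 -0.0348, Ddx56 -0.0872), and none of these had been called in that comparison with TMM.

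With the mouse as a replicate block, 38 genes were lower and 2 higher in WT (Bysl 0.25 and Dcaf13 0.23, beside 25.9% of all genes higher), and 39 lower and 2 higher in KO, with medians of -0.48 and -0.39. For KO minus WT, numbers 3 and 6 are shared by different mice, so a block rests on 4 libraries a population. It pairs unrelated animals by number alone, which gives no valid test, and only effect sizes are given. The medians of the 50 were then -0.04 in GFP-high and -0.01 in GFP-low cells, and Myc was at -0.69 and -0.27. The block changed no other count by over 1.5 times.

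Leaving out 1 library at a time gave 31 to 36 lower and 0 to 1 higher in WT and 30 to 36 lower and 2 to 3 higher in KO; the 1 higher in WT came without the GFP-high library of mouse 3. The medians ranged from -0.51 to -0.43 in WT, -0.41 to -0.35 in KO, -0.08 to -0.03 and -0.11 to -0.0015 for KO minus WT in GFP-high and GFP-low cells, and -0.02 to 0.08 for the interaction. Values near 0 changed sign, namely Ltv1 (-0.0952 to 0.0546 in WT, -0.133 to 0.0412 in KO), Ddx56 (-0.0260 to 0.0732 in WT), Rrp9 (-0.0769 to 0.107 in KO) and the interaction of Myc (-0.11 to 0.20).

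Leaving out both WT GFP-low libraries richest in Paneth transcripts was chosen after seeing the data; Rrp9 was then at -0.22 in WT (edgeR, adjusted p = 0.137). Where values changed, the cause was not tested. Depth limits the members with few counts most, down to 97 for Imp3 in 1 library.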
